A study of Mus musculus with 2 samples.

Results

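The mir-15, mir-16, mir-195 and mir-497 family was described by 6 genes of the mouse, Mir15a, Mir16-1, Mir15b, Mir16-2, Mir195a and Mir497b, in the newborn liver. These 6 genes were chosen by name, by matching gene identifiers to symbols in the mm10 annotation, out of 1973 microRNA genes in the deposited tables. The entry Mir497b stands for the hairpin Mir497, because Mir497b lies over Mir497 on the opposite strand and the reads at this place were all on the strand of Mir497. Its values are therefore the counts on the strand opposite to Mir497b.

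The study sequenced microRNAs in total RNA of the whole liver, with a size range below 30 given in the labels. The samples form 1 group of 2 pups of strain B6NCrl at postnatal day 0. Pup 2 gave replicate 2 and pup 1 gave replicate 1. Both were carried by the same pregnant female, and sex was not collected. No treatment, transgene or mutation was named in the labels, and there was no second tissue or age. Both pups carry the same donor entry in the labels, so the spread reported is that between 2 litter mates. The files hold no readout of cell division, so the known role of the family was not measured.

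MicroRNAs of this family are cut from hairpin precursors, and the 5p arm is loaded into Argonaute, where bases 2 to 8, the seed, pair with sites in messenger RNAs. Known targets of the family include cyclins D and E, Cdk6, Chek1, Wee1 and the survival factor Bcl2, and its members are known to slow entry into the cell cycle. In newborn mouse heart, miR-195 is known to rise as cardiomyocytes leave the cell cycle. The newborn liver still holds dividing hepatocytes and blood-forming cells.

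The mature 5p arms are shown because the shared seed is what makes these genes a family. In the following RNA sequences, from RefSeq on GRCm38.p6 and written 5′ to 3′, capitals mark bases 2 to 8.
miR-15a-5p: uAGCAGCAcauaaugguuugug
miR-15b-5p: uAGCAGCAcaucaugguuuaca
miR-16-5p: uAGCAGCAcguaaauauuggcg
miR-195a-5p: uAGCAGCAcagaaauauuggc
miR-497a-5p: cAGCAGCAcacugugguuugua
miR-322-5p: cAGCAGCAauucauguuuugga
miR-503-5p: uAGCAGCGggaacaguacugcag

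All family arms carry the same seed, and miR-497a-5p alone among them starts with C instead of U. Counted from 1 at the 5′ end, miR-15a-5p and miR-15b-5p differed by A12C, G20A, U21C and G22A, with 18 of 22 bases the same. Between miR-16-5p and miR-195a-5p the differences over the compared stretch were G10A and U11G, with 19 of 21 bases the same. miR-15a-5p and miR-16-5p shared 16 of 22 bases, and all 6 of their differences lay beyond the seed. miR-15a-5p and miR-497a-5p shared 17 of 22 bases. The relative miR-322-5p holds the same seed, and miR-503-5p differs from miR-15a-5p in the seed by A8G.

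The arms on the other side of the hairpins, the 3p arms, have no common seed. They are shown because each deposited count covers a whole hairpin and cannot be split by arm. Capitals again mark bases 2 to 8.
miR-15a-3p: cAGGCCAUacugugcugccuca
miR-16-1-3p: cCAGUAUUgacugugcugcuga
miR-15b-3p: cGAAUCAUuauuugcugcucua
miR-16-2-3p: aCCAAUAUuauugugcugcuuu
miR-195a-3p: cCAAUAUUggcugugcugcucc
miR-497a-3p: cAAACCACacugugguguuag

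Each of these 3p seeds occurred in 1 mature microRNA entry of the RefSeq table. The 3p arms of Mir16-1 and Mir16-2 thus differ, although their 5p arm is the same molecule.

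The members lie in 3 pairs on 3 chromosomes. Coordinates are from GENCODE M21 on mm10, and the deposited counts were made with annotation M4. Mir15a (ENSMUSG00000093007.1) lies at chr14:61632027-61632110 and Mir16-1 (ENSMUSG00000092995.1) at chr14:61631880-61631972, both on the minus strand with Mir15a first in the direction of transcription and 54 bases between them. Both are in introns of Dleu2, a long non-coding RNA gene. Of the 8 Dleu2 transcripts that span them, 8 have an intron there.

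Mir15b (ENSMUSG00000065580) lies at chr3:69009772-69009835 and Mir16-2 (ENSMUSG00000065606.1) at chr3:69009902-69009996, on the plus strand with 66 bases between them. Both are in introns of Smc4, which encodes a subunit of the condensin complex that compacts chromosomes for division, in 5 of 5 spanning transcripts. The identifier of Mir15b has another version in M21 than in the deposited tables, so its counted interval may differ from the coordinates given here.

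Mir497 lies at chr11:70234717-70234800 and Mir195a at chr11:70235042-70235135, on the plus strand with 241 bases between them. Mir497b (ENSMUSG00000070109) spans chr11:70234692-70234816 on the minus strand. No annotated gene of M21 hosts them there. The map of the 3 loci shows the order and spacing of the hairpins.

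**Figure D1:**
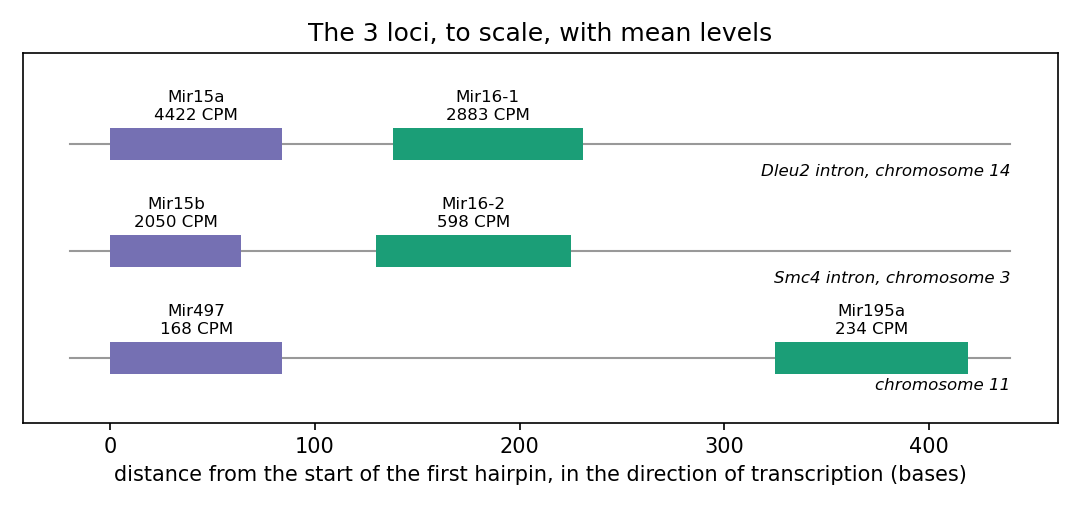
Hairpins of the 3 family loci drawn to scale along the direction of transcription, with the distance from the start of the first hairpin in bases on the horizontal axis, the first hairpin of each pair in purple, the next in green, and the mean CPM of both pups (counts per 1000000 microRNA counts) above each. The gaps between hairpins are 54 bases at the Dleu2 locus, 66 bases at the Smc4 locus and 241 bases at the locus of Mir497 and Mir195a.

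Replicate 2 held 8277738 reads and replicate 1 held 6028986 reads. Of these, 4538427 in replicate 2 and 3422622 in replicate 1 mapped to a single locus on the strand of a microRNA gene. Levels are counts per 1000000 of these totals (CPM). Taking 3 counts as the limit, a gene with a count of 0 may have had 0.661 CPM in replicate 2 or 0.877 CPM in replicate 1. Reads at several loci made up 24.7% of replicate 2 and 25.2% of replicate 1, and they are on no gene. The hepatocyte microRNAs Mir122, Mir192, Mir194-2 and Mir148a together took 36.9% of microRNA counts in replicate 2 and 35.8% in replicate 1, which matches the labelled liver. Of these 4, Mir122 passed as higher in replicate 2 and the other 3 as lower. Skeletal muscle and heart microRNAs took 0.104% in replicate 2 and 0.0159% in replicate 1, mostly Mir206, at 1004 CPM in replicate 2 and 136 CPM in replicate 1. Of the 7 genes of that list in the table, Mir133a-1, Mir133a-2 and Mir1a-1 were at 0 in both libraries. Mir1a-2 had no entry. Because reads at several loci are on no gene, these 0 counts do not show that the microRNAs were absent. Erythroid microRNAs took 0.515% in replicate 2 and 0.531% in replicate 1, with Mir144 called higher and Mir451a lower. Leukocyte microRNAs took 0.951% in replicate 2 and 1.04% in replicate 1, over 5 of the 6 genes listed. Mir142 had no entry under its name, so its reads are not in the leukocyte share. The part of these groups of microRNAs in the differences between the pups was not tested. All intervals are 95% intervals. They and the limits for 0 counts measure counting error alone, because reads copied by PCR are not separate molecules.

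The family as a whole was a small part of the microRNA counts at single loci. Reads of miR-16-5p that match both of its genes are not in these counts, so the share does not include them. Its 6 genes held 45835 counts in replicate 2 and 36311 counts in replicate 1. This is a share of 1.01% (exact Clopper-Pearson interval 1.00 to 1.02) in replicate 2 and 1.06% (1.05 to 1.07) in replicate 1, with a mean of 1.04% ± 0.0360 (SD, n = 2). There was no overlap between the 2 intervals, and the shares differ by a log2 ratio of -0.07, replicate 2 over replicate 1. In bulk liver, fewer cells of a type and less RNA per cell cannot be told apart.

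By counts at single loci, Mir15a was the most abundant member, at 4422 CPM (20071 counts) in replicate 2 and 4422 CPM (15134 counts) in replicate 1. Both pups were thus level, with a mean of 4422 ± 0.496 CPM (SD, n = 2), and Mir15a ranked 33 by mean CPM. Its hairpin neighbour Mir16-1 had 2629 CPM (11930 counts) in replicate 2 and 3137 CPM (10738 counts) in replicate 1. Mir16-1 was lower in replicate 2, with a mean of 2883 ± 359.7 CPM and rank 49.

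At the Smc4 locus, Mir15b had 2160 CPM (9804 counts) in replicate 2 and 1940 CPM (6640 counts) in replicate 1. Mir15b was higher in replicate 2, with a mean of 2050.1 ± 156 CPM and rank 58. Mir16-2 had 505 CPM (2294 counts) in replicate 2 and 690 CPM (2361 counts) in replicate 1. It was lower in replicate 2, with a mean of 598 ± 130.4 CPM and rank 96.

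Mir195a and the reads of Mir497 were the least abundant. Mir195a had 224 CPM (1016 counts) in replicate 2 and 244 CPM (834 counts) in replicate 1, with a mean of 234 ± 14.01 CPM and rank 142. The reads at Mir497 were at 159 CPM (720 counts) in replicate 2 and 176 CPM (604 counts) in replicate 1, with a mean of 168 ± 12.6 CPM and rank 155. On its own strand Mir497b had 0 counts in both libraries. Mir195a had 0 opposite-strand reads in replicate 2 and 1 in replicate 1, and the other 4 members had none in either library.

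The order of levels, from counts at single loci, was Mir15a, Mir16-1, Mir15b, Mir16-2, Mir195a and the Mir497 reads, the same in both pups. At each of the 5 steps in this order the ranges over the pups were apart, and the gap between the means was larger than the sum of both SDs. The smallest gap, between Mir195a and the Mir497 reads, was 66.2 CPM against a summed SD of 26.6 CPM. Levels of different microRNAs also carry differences in ligation between sequences, for which no correction was made. The plot of member levels shows this order.

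**Figure D2:**
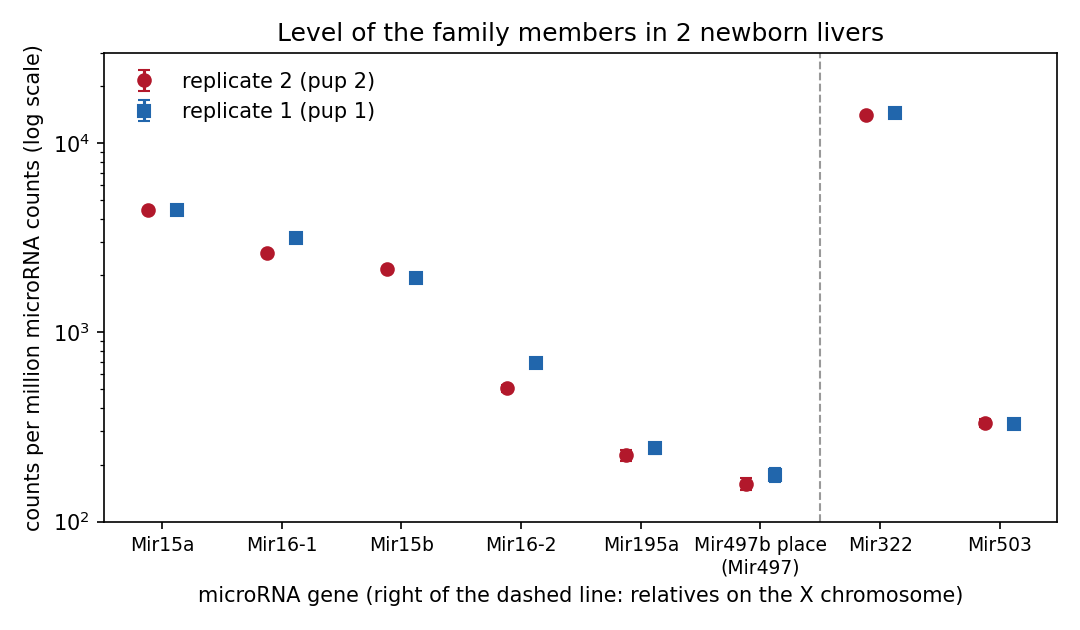
Level of each family member in counts per 1000000 of gene-strand microRNA counts, on a log axis, with a circle for replicate 2, a square for replicate 1 and exact 95% intervals that are mostly smaller than the points, and with the relatives Mir322 and Mir503 right of the dashed line. Among the members and by counts at single loci, Mir15a is highest at 4422 CPM in both replicate 2 and replicate 1. The Mir497 reads are lowest at 159 CPM in replicate 2 and 176 CPM in replicate 1.

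By locus, the Dleu2 pair held most of the family's counts at single loci. Its sum was 7051 CPM in replicate 2 and 7559 CPM in replicate 1, which is 70.5% ± 1.01 of the family's counts (SD, n = 2). The sum of the Smc4 pair was 2666 CPM in replicate 2 and 2630 CPM in replicate 1, or 25.6% ± 1.14 of the family. That of the chromosome 11 pair was 383 CPM in replicate 2 and 420 CPM in replicate 1, or 3.87% ± 0.122. The Dleu2 locus thus outweighed the other loci in both pups.

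By gene, Mir15a made up 42.7% ± 1.49 of the family's counts at single loci, Mir16-1 27.8% ± 2.51 and Mir15b 19.8% ± 2.19 (SD, n = 2). Mir16-2 made up 5.75% ± 1.06, Mir195a 2.26% ± 0.0567 and the Mir497 reads 1.62% ± 0.0654.

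For Mir16-1 and Mir16-2 the counts are not the level of miR-16-5p. Their hairpins are shown because they share a run of 23 bases, in capitals, that covers the whole 5p arm and 1 base more.
Mir16-1: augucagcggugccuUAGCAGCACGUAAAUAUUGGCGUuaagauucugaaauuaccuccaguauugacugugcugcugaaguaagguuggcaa
Mir16-2: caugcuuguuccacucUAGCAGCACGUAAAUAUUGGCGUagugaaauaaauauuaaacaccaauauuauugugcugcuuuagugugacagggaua

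A read that lies within these 23 bases matches both loci equally, and reads at several loci are on no gene. What the tables count for these genes are reads that map to 1 locus alone. Of the 5 hairpins compared, those of Mir15b, Mir16-1, Mir16-2, Mir195a and Mir497, 2 shared a run of at least 20 bases with another microRNA locus. The hairpin of Mir15a was not compared. The longest run shared with another locus was 11 bases for Mir15b, 16 for Mir195a and 12 for Mir497. Statements on Mir16-1 and Mir16-2, and on their ratios to other genes, are therefore uncertain.

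The pups were compared gene by gene with a two-sided exact binomial test with Benjamini-Hochberg adjustment at 0.05 over 391 entries. It compares 2 libraries against counting error, not conditions. Of all entries tested, 30.2% were called, 15.9% higher in replicate 2 and 14.3% lower. Of the 6 members, 1 was higher, 2 were lower and 3 were not called. Their median log2 ratio was -0.14, against 0.00 for all entries, while the ratios had a median size of 0.15, against 0.19 for all entries. Since all members were well counted, the 222 genes that reached 100 counts in each library are a closer background, and 48.6% of them were called, with a median size of 0.12.

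Mir15b was higher in replicate 2, with a log2 ratio of 0.16 (exact interval 0.11 to 0.20, exact binomial test, adjusted p = 1.05e-10). Mir16-1 was lower, with a log2 ratio of -0.26 (-0.29 to -0.22, exact binomial test, adjusted p = 6.11e-39). Mir16-2 was lower with a log2 ratio of -0.45 (-0.53 to -0.37, exact binomial test, adjusted p = 4.46e-25). Both genes that passed as lower are the miR-16 genes.

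The other 3 were not called. Mir15a had a log2 ratio of 0.00 (-0.03 to 0.03, exact binomial test, adjusted p = 1). Mir195a had -0.12 (-0.26 to 0.01, exact binomial test, adjusted p = 0.189) and the Mir497 reads had -0.15 (-0.31 to 0.00, exact binomial test, adjusted p = 0.157). The negative binomial exact test of edgeR called no member (adjusted p = 1 for each, 0 of the 6 with an unadjusted p under 0.05) and 2 genes of the whole table, Mir206 and Mir669f (12 with an unadjusted p under 0.05). Its dispersion was estimated from the same 2 libraries that it compares, so few calls follow from its construction and the missing calls do not show that the pups were alike. The plot of pup ratio against level places the members among the other genes.

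**Figure D3:**
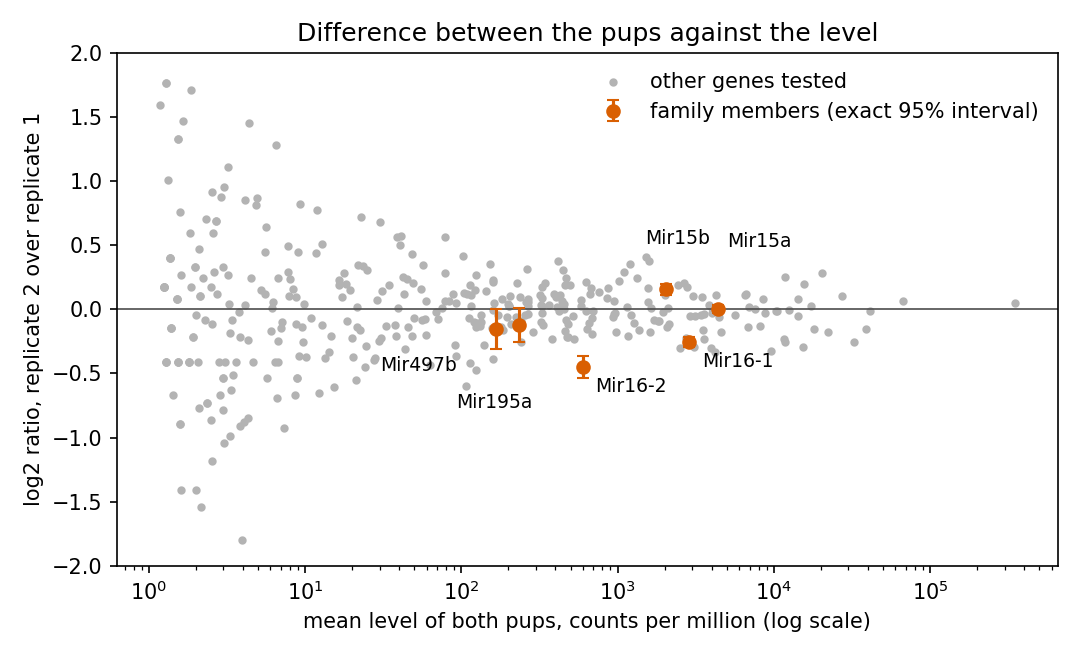
Log2 ratio of replicate 2 over replicate 1 against the mean level in CPM (log axis), with the 6 members as large points with exact 95% intervals and 379 other tested genes as grey points. Mir16-2 at -0.45 and Mir16-1 at -0.26 lie below 0, Mir15b at 0.16 above it, and 6 other genes lie outside the axes or at 0 in 1 library.

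The ratio of neighbouring hairpins within a pup needs no library total. Mir15b over Mir16-2 was 4.27 in replicate 2 and 2.81 in replicate 1. This ratio was 1.52 times as large in replicate 2 (exact interval 1.42 to 1.62). Mir15a over Mir16-1 was 1.68 in replicate 2 and 1.41 in replicate 1, which is 1.19 times as large in replicate 2 (1.15 to 1.23). At both loci the miR-15 gene stood higher against the miR-16 gene in replicate 2.

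Mir195a over the Mir497 reads was 1.41 in replicate 2 and 1.38 in replicate 1. Its ratio of ratios was 1.02 with an exact interval of 0.885 to 1.18, which includes 1. Across loci, the miR-15 genes Mir15a and Mir15b together were at 6583 CPM in replicate 2 and 6362 CPM in replicate 1. Mir16-1 and Mir16-2 together were at 3134 CPM in replicate 2 and 3827 CPM in replicate 1. As a ratio, miR-15 genes over miR-16 genes, this was 2.10 in replicate 2 and 1.66 in replicate 1, and 1.26 times as large in replicate 2 (1.23 to 1.30). These ratios follow from the calls above and share the counts behind them.

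Between loci the ratios moved by less than at the Smc4 pair. The Dleu2 pair over the Smc4 pair was 2.65 in replicate 2 and 2.87 in replicate 1, a ratio of ratios of 0.920 (0.891 to 0.9501). Dleu2 over chromosome 11 was 18.4 in replicate 2 and 18.0 in replicate 1, a ratio of ratios of 1.02 (0.953 to 1.10). Smc4 over chromosome 11 was 6.97 in replicate 2 and 6.26 in replicate 1, a ratio of ratios of 1.11 (1.03 to 1.20). For the genes that share the miR-16-5p arm, Mir16-1 over Mir16-2 was 5.20 in replicate 2 and 4.55 in replicate 1. The ratio of ratios was 1.14 (1.07 to 1.22). Reads that lie within the shared arm are in neither count. Of the 15 pairs of members, the interval left out 1 for 10 and included it for 5. These intervals were not adjusted for the number of pairs.

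Such shifts between neighbours were common in these libraries. Among 49 neighbouring pairs of microRNA genes within 1 kb on the same strand that reached 100 counts in each library, the interval left out 1 for 63.3%. The median size of the log2 change was 0.21, also over the 46 pairs outside the family. The change of Mir15b over Mir16-2, 0.60 on the log2 scale (0.51 to 0.70), was 3rd of the 49 by size, that of the Dleu2 pair 18th and that of the chromosome 11 pair 46th. The plot of neighbouring pairs shows these places.

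**Figure D4:**
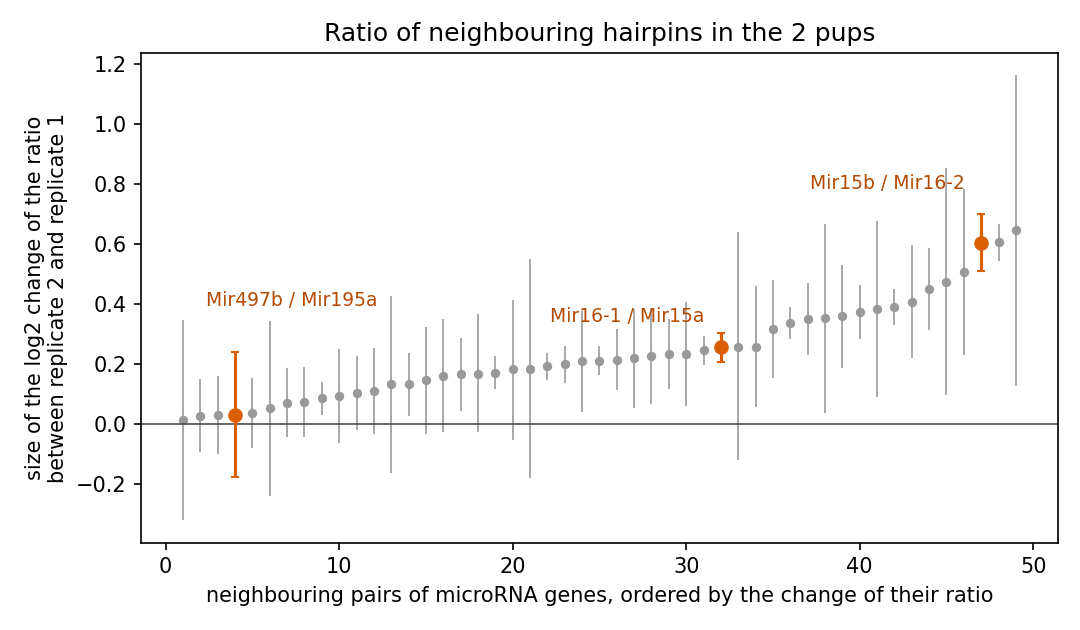
Size of the log2 change between replicate 2 and replicate 1 in the ratio of each of 49 neighbouring pairs of microRNA genes, ordered by size, with exact 95% intervals. The Smc4 pair at 0.60 stands near the top, while the Dleu2 pair at 0.26 and the pair of Mir497 reads and Mir195a at 0.03 lie among the other pairs.

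Outside the 6 genes, 5 others carry the family's seed in a mature microRNA, and the seed group thus has 11 genes. Mir322, at chrX:53054255-53054349 on the minus strand, is the mouse counterpart of human miR-424. By counts at single loci, which leave out shared miR-16-5p reads, it was the most abundant of the group, with 14035 CPM in replicate 2 and 14515 CPM in replicate 1, and a mean of 14275 ± 339 CPM (SD, n = 2). Mir195b, Mir6342, Mir6353 and Mir6419 had 0 counts in both libraries, so the limit of a count of 0 applies to each. On the same counts, Mir322 was 1.39 times the family sum in replicate 2 and 1.37 times in replicate 1.

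The whole seed group took 2.41% of all microRNA counts in replicate 2 and 2.51% in replicate 1, with a mean of 2.46% ± 0.0699. The 6 members held 41.8% of it in replicate 2 and 42.2% in replicate 1. Mir322 had a small lower ratio that passed the exact binomial test (log2 ratio -0.05, adjusted p = 1.53e-07). Its neighbour Mir503, at chrX:53053984-53054054, was at 332 CPM in replicate 2 and 326 CPM in replicate 1, and was not called. Among the 7 genes of the Mir322 cluster, Mir351 (2598 CPM in replicate 2 and 2280 CPM in replicate 1) and Mir450b (173 CPM in replicate 2 and 148 CPM in replicate 1) passed as higher, Mir322 passed as lower and 4 were not called. These are 3 calls among 7 genes, against 30.2% of all entries and 48.6% of well counted genes. Mir450-1 and Mir450-2, which were not called, were below the count limit of well counted genes, so the 48.6% does not cover them.

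Other microRNAs that act on the cell cycle were set beside the family. Of 23 microRNA genes known to restrain the cell cycle, such as the let-7 and miR-26 genes, 21 were in the table and were tested. Of these 4 were higher in replicate 2, 6 were lower and 11 were not called, with a median log2 ratio of -0.09. These are 10 calls among 21 genes, against 48.6% of well counted genes, but the 2 rates rest on different filters. Mir26a-1, Mir29b-1, Mir29b-2 and Mir34b of the list were below the count limit of well counted genes, and none of them was called. Whether the list differs from the background was not tested. The list took 12.1% of counts at single loci in replicate 2 and 12.2% in replicate 1. This is 11.96 times the family in replicate 2 and 11.5 times in replicate 1. Reads at several loci are missing from both the list and the family, so the multiples do not include them. Mirlet7g, of the let-7 family that represses Ras and cyclin genes, was the highest gene of the list by these counts. It had 41129 CPM in replicate 2 and 41444 CPM in replicate 1.

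Of 18 genes known to promote the cell cycle, from the miR-17 clusters, miR-21 and miR-221/222, 0 were higher in replicate 2, 9 were lower and 9 were not called. All 9 calls among the 18 genes were thus lower, so the matching background is that of lower calls. Lower calls were made for 14.3% of all entries and for 55 of the 222 well counted genes, a smaller part in both. In either direction, 48.6% of well counted genes were called. Mir18b, Mir19b-1 and Mir19b-2 of the list were below the count limit of well counted genes, and of these Mir19b-2 was called. Whether the list differs from the background was not tested. The list had a median log2 ratio of -0.14, and it took 5.45% of counts in replicate 2 and 6.44% in replicate 1. This was 5.39 times the family in replicate 2 and 6.07 times in replicate 1. Here too, reads at several loci are in neither the list nor the family. Mir17, a repressor of p21 and E2F1, had 8501 CPM in replicate 2 and 10645 CPM in replicate 1.

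Genes outside the family nearest in level were found by the distance in log2(CPM + 1) over the 2 libraries. With 2 libraries this likeness reflects the level and 1 ratio only. Nearest to Mir15a was Mir429 (distance 0.0521) and nearest to Mir15b was Mir375 (0.0533). Nearest to Mir16-1 was Mir194-2 (0.110), and nearest to Mir16-2 was Mir494 (0.261), the largest of these 6 distances. Mir195a was nearest to Mir24-2 (0.0757) and the Mir497 reads to Mir32 (0.0927). The next in likeness were Mir483 for Mir15a, Mir107 for Mir16-1, Mir92-1 for Mir15b, Mir320 for Mir16-2, Mir674 for Mir195a and Mir350 for the Mir497 reads.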

How the data were processed

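The authors deposited raw read counts per microRNA gene for each of 2 liver libraries. The build mm10 and the GENCODE release M4 are named in the text the authors deposited beside them. The columns have no header. From the values, they hold counts without strand, on the gene strand and on the opposite strand. The aligner is not given in the sources used here, nor is the counting program or the trimming. Symbols and coordinates came from GENCODE M21, with a symbol for 1894 of 1973 identifiers, and the 79 others held 0 counts. Sequences came from RefSeq on GRCm38.p6. Mature sequences matched every member.

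CPM and log2 ratios were computed from gene-strand counts, with replicate 2 over replicate 1. Entries that summed to 10 or more counts were compared with the exact binomial test (SciPy 1.17.1) and Benjamini-Hochberg adjustment. No quasi-likelihood test was possible with 1 group. Ratios have exact conditional intervals. Of uniquely mapped reads, 9.92% in replicate 2 and 8.87% in replicate 1 were not on the strand of a microRNA gene. These stayed out of library sizes. The Mir497 reads, which are among them, were the only ones tested. They are in the family's sum but not in the total behind its share, whose mean was 1.02% without them. Alternatives used R 4.3.3, edgeR 4.0.16 (TMM, negative binomial exact test) and DESeq2 1.42.0 size factors, other totals, filters and pseudocounts, and each pup alone. The test was checked on simulated data.

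The members and lists were chosen with earlier results of these data known. Named genes were the members, genes with the same seed, Mir503, the 2 genes nearest in level to each member, hosts, and up to 4 of the highest genes of each list. Mir351, Mir450b, Mir206 and Mir669f were named as exceptions to a count after their values were seen. Mir18, Mir92-1, Mir92-2, Mir450-1 and Mir450-2 were matched through RefSeq synonyms.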

Additional observations from a re-analysis of the deposited data

How the results depend on the processing

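The family's share, 1.04% of gene-strand microRNA counts, was 0.988% of counts made without strand, 0.938% of uniquely mapped reads and 0.578% of all reads. It was 1.59% of the total without Mir122 and 0.687% without Mir16-1 and Mir16-2, and each pup alone gave 1.01 to 1.06%. Genes called between the pups numbered 118, and 2 with the negative binomial exact test. Members called numbered 3, against 6 with all reads as the denominator and 0 with the negative binomial exact test. The common biological coefficient of variation behind that test was 0.130, estimated over 391 entries of the same 2 libraries it compares, which limits its calls. The log2 ratio of Mir15a, 0.00 with microRNA totals, was -0.017 with uniquely mapped reads and -0.050 with all reads. With all reads as the denominator, Mir15a, Mir195a (-0.17) and the Mir497 reads (-0.20) were also called lower, 37.3% of called genes were higher in replicate 2, against 52.5% with microRNA totals, and without Mir122 61.0% were. Mir15b kept a positive sign, and Mir16-1, Mir16-2, Mir195a and the Mir497 reads a negative one, under every alternative run, and the calls of Mir15b, Mir16-1 and Mir16-2 were lost only in the negative binomial exact test. Of the 66 alternatives to a member's log2 ratio, 59 kept direction and call. The pseudocount alternatives among them reran no test and could not change a sign, so their outcome was fixed. The filters and the negative binomial exact test left each ratio unchanged and could alter only a call. The cause of the changes across alternatives was not tested. With 1 library per pup and 2 pups of 1 litter, no spread between animals could be estimated apart from the difference compared, and reads at several loci limit what can be said of Mir16-1 and Mir16-2.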
